A study of Xenopus laevis with 9 samples.

Results

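Cranial neural crest explants of Xenopus laevis embryos with ADAM13 knocked down were compared with explants that also carried an mRNA for its cytoplasmic domain. The arrays measure RNA, so the level of ADAM13 protein is not known here. The comparison rests on 6 of the 9 arrays of the study, 3 of each group, matched by experiment. All 15491 probe sets of the array were taken except the 2 of adam33, the gene of ADAM13, which left 15489. The first group, called MO13+C13 here as in the sample titles, received at the one-cell stage 10 ng of a morpholino to ADAM13 and an mRNA that encodes GFP joined to the cytoplasmic part of ADAM13. The group it was set against, MO13, received 10 ng of the same morpholino and no such mRNA. The remaining group, CMO, received 10 ng of a control morpholino and shared the estimate of the spread. The sample labels give an mRNA amount of 300 pg and the series text gives 0.5 ng, and the files do not settle which was used. Every embryo was thus injected with a morpholino, grew at 15 °C and was dissected at stages 15 to 17, and RNA was extracted from the crest at once. The labels do not say how many embryos an array stands for. Replicates 1, 2 and 3 of each group came from 3 independent experiments with codes DA4, DA5 and DA2, called experiments 1, 2 and 3 here. The 9 arrays include no uninjected group and no group given the GFP fusion without the morpholino.

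ADAM proteins are membrane-anchored metalloproteases that cut cell-surface proteins such as cadherins and growth factor precursors outside the cell. The short cytoplasmic domain of some of them, ADAM13 included, can be released by a further cut and enter the nucleus, where it can act on gene expression. Cranial neural crest cells leave the border of the neural plate, migrate into the head and give rise to much of the skeleton of the face, and in the frog ADAM13 is needed for that migration. The comparison asks which transcripts differ when the domain is added back while the full-length protein remains knocked down. Since no mRNA is listed for MO13, the domain, the GFP joined to it and the injection of mRNA cannot be told apart here. The injected mRNA does not carry the protease part, and since it was given at the one-cell stage its product need not be limited to the crest.

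The adam33.L probe set checked the label of the added domain and read 10.00, 9.98 and 10.23 on the log2 scale in MO13+C13 in experiments 1, 2 and 3. The same probe set read 4.42, 3.78 and 4.81 in MO13 and 3.07, 4.5 and 3.34 in CMO, so the MO13+C13 arrays lay above all others. Below, values of a group always run in the order of experiments 1, 2 and 3, and levels are the deposited log2 intensities. The tissue label was checked against markers of the cranial crest. Of 9 measured crest markers 8 lay above the median of the arrays, among them the transcription factor genes tfap2a.L, sox9.S and snai2.L with means of 10.63, 10.34 and 9.55 in MO13+C13. Markers of other tissues were present as well, 6 of 8 of the neural plate and 6 of 10 of the epidermis above the array median, while 0 of 5 of multiciliated cells and 0 of 2 of the cement gland were.

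No probe set passed the test of limma (lmFit and eBayes with experiment as a block, Benjamini-Hochberg adjustment over the 15489 probe sets). Called were 0.0% of them, and the lowest adjusted p was 0.475, for ptafr.L and XB5815362.S. At an unadjusted p under 0.05, 601 probe sets were higher in MO13+C13 (3.88%) and 438 lower (2.83%), 6.71% in all. When each array was centred on its own median these counts were 389 higher and 757 lower, so which direction prevailed depended on the scaling. The median difference over all probe sets was -0.0033 as deposited and -0.06 after centring. Array by array, the MO13+C13 values lay wholly above those of MO13 for 1.96% of probe sets and wholly below for 2.55%. Within experiments, 1817 probe sets were higher in MO13+C13 in all 3 (11.7%) and 2162 lower in all 3 (14.0%), 25.7% together. The precision is set by 3 arrays a group, and low signal cannot be separated from background here.

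The 3 experiments differed in how far MO13+C13 lay from MO13. The SD of the difference over all probe sets was 0.48 in experiment 1, against 0.29 in experiment 2 and 0.29 in experiment 3. In experiment 1, 623 probe sets were past 2-fold higher (4.02%) and 211 past 2-fold lower (1.36%). In experiment 2 the counts were 90 higher (0.581%) and 50 lower (0.323%), and in experiment 3 they were 80 higher (0.516%) and 31 lower (0.2%). Each of these differences is 1 array against 1 array and carries no test of its own. The MO13 array of experiment 1 had the lowest median of the 9 arrays, 4.88, beside 5.01 for MO13+C13 of that experiment, and its part in the wider spread was not tested. Against CMO the spread was alike in all experiments, with SDs of 0.40, 0.40 and 0.41 for MO13+C13 minus CMO and 0.44, 0.43 and 0.38 for MO13 minus CMO.

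Experiments 1 and 2 resembled each other, and experiment 3 resembled neither. Across probe sets, which are not independent, the differences of experiments 1 and 2 correlated at r = 0.36, those of 1 and 3 at -0.11 and those of 2 and 3 at -0.06. These pairs share no array, although all arrays were normalized together. Among the 7745 brighter probe sets the values were 0.45, -0.14 and -0.11. Of the 623 probe sets past 2-fold higher in experiment 1, 534 (85.7%) were also higher in experiment 2, where 44.2% of all probe sets were higher. In experiment 3, 239 of the 623 (38.4%) were higher, where 48.4% of all were. Of the 211 past 2-fold lower in experiment 1, 148 (70.1%) were lower in experiment 2 (53.3% of all) and 69 (32.7%) in experiment 3 (49.3% of all). In experiment 1 itself 50.8% of all probe sets were higher and 47.5% lower.

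The difference between experiment 3 and the other two was tested with a term for each group in experiment 3. limma called 0.0% of the 15489 probe sets, with a lowest adjusted p of 0.0870, and 1107 (7.15%) had an unadjusted p under 0.05. With experiment 1 set apart in its place 1781 had such a p, and with experiment 2 set apart 328 did. Leaving out the dimmer probe sets, limma called 1 for a different value in experiment 3. This probe set has no gene symbol and read 7.42, 9.13 and 2.97 in MO13+C13, 7.62, 9.39 and 7.48 in MO13 and 7.71, 9.13 and 7 in CMO (adjusted p = 0.0170 in limma). The low reading belongs to the MO13+C13 array of experiment 3 alone.

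**Figure D1:**
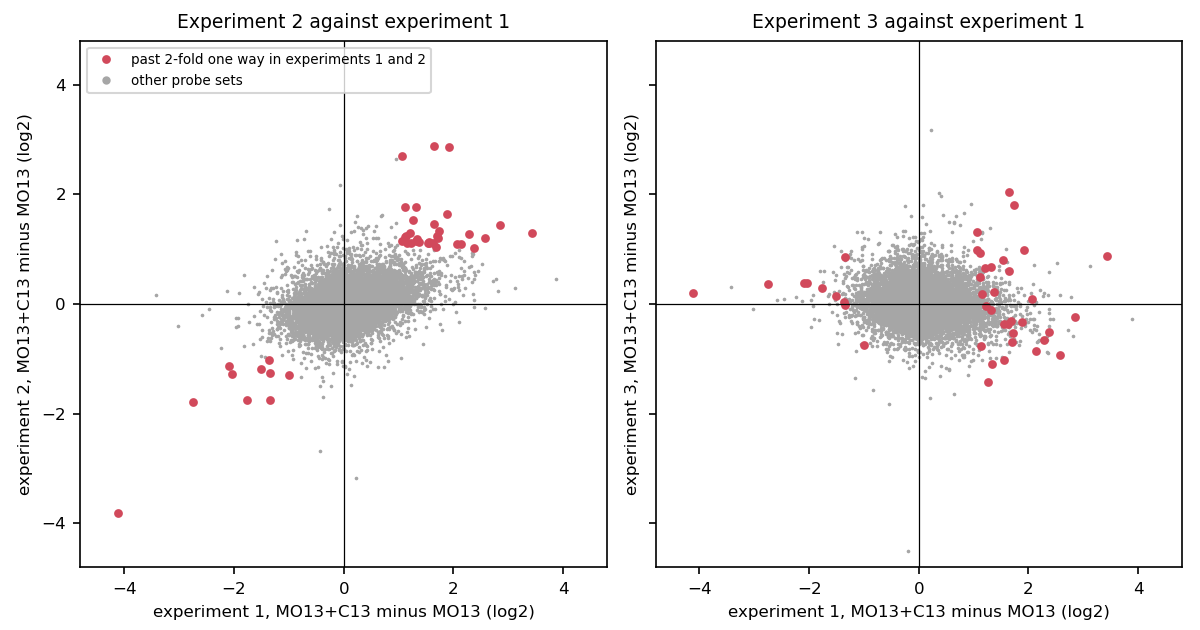
Differences between MO13+C13 and MO13 (log2), 1 point for each of 15489 probe sets, in experiment 2 (left) and experiment 3 (right) against experiment 1, with no axis cut off. The 42 red points are past 2-fold in one direction in experiments 1 and 2, by which they were chosen, and in the right panel 17 of them keep that sign in experiment 3.

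Among probe sets with a mean at or above the median, those with 1 gene symbol that lay on the same side in all 3 experiments were ranked by p, and the first 12 in each direction are described here. The first is ptafr.L, the receptor for platelet-activating factor, a lipid mediator. It read 5.31, 6.42 and 5.15 in MO13+C13 and 4.2, 5.19 and 4.22 in MO13, with 5.96, 6.59 and 5.43 in CMO. In each experiment the MO13+C13 array lay above its MO13 array and below its CMO array, although the groups overlap across experiments. The difference from MO13 was 1.09 (SE 0.13), a 2.13-fold higher level, and did not pass (limma adjusted p = 0.475). The other 23 genes had a limma adjusted p of 0.721 each.

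The rest of the 12 higher genes are grouped here only for description and not in order of p. After ptafr.L the smallest p was that of tmem126a.L, given in the following paragraph. Described first are a keratin, a claudin and genes of the cytoskeleton. The keratin krt19.S, an intermediate filament protein, read 8.51, 8.25 and 8.62 in MO13+C13 and 7.42, 7.78 and 8.04 in MO13, so the groups did not overlap. Its difference was 0.71 (SE 0.14), and CMO read 8.16, 8.06 and 8.27. The tight junction gene cldn6.2.S read 9.18, 9.66 and 9.79 in MO13+C13, above 8.36, 9.01 and 9.42 in MO13 experiment by experiment, a difference of 0.61 (SE 0.12). Its CMO arrays were lower still, at 8.24, 8.71 and 8.87, so for this gene MO13+C13 lay farther from CMO than MO13 did. The alpha-tubulin gene tuba1cl.3.L read 9.18, 9.28 and 8.73 in MO13+C13 and 8.16, 8.79 and 8.15 in MO13 (difference 0.70, SE 0.13). Its further probe sets had means of 0.71 and 0.81, from 1.41, 0.54 and 0.19 and from 1.72, 0.55 and 0.17 by experiment. The 3 means were thus alike, but in experiment 3 the further probe sets stood below the 0.58 of the one chosen. The cortactin gene cttn.S, whose protein binds branched actin at the cell edge, read 5.47, 5.86 and 5.68 in MO13+C13 against 4.29, 5.48 and 5.22 in MO13 (difference 0.67, SE 0.16), while its copy cttn.L stood at -0.01. The growth cone protein gene dpysl3.L stood at 0.57 (SE 0.14) with 8.68, 7.84 and 8.41 in MO13+C13 and 7.87, 7.57 and 7.77 in MO13, and at 0.39 in its other probe set, but its copy dpysl3.S stood at 0.00.

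The secreted matrix protease gene mmp3.L read 8.91, 9.18 and 8.33 in MO13+C13 and 8.3, 8.89 and 7.49 in MO13, a difference of 0.58 (SE 0.14) that was widest in experiment 3, at 0.84. The kinase gene nuak2.S, of the AMPK-related family, read 5.23, 5.74 and 5.96 in MO13+C13 and 4.51, 5.26 and 5.27 in MO13 (difference 0.63, SE 0.15). The atypical kinase gene riok3.L stood at 0.75 (SE 0.17), with 8.77, 8.11 and 8.93 in MO13+C13 and 7.83, 7.27 and 8.46 in MO13. Both of its groups exceeded CMO, at 7.02, 7.01 and 7.40, and its copy riok3.S stood at -0.13. The mitochondrial DNA-binding gene ssbp1.L (0.53, SE 0.12) and the apoptosis inhibitor gene caap1.L (0.64, SE 0.15) were higher by between 0.38 and 1.03 in single experiments. For tmem126a.L, which assists assembly of respiratory complex I, the probe set chosen stood at 0.75 (SE 0.14), but 2 further probe sets at means near 12 stood at -0.07 and -0.04.

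The 12 lower genes showed smaller differences, between -0.91 and -0.37, and include regulators of early patterning. The homeobox gene ventx2.1.L, a target of BMP signalling in ventral cells, read 8.76, 7.34 and 7.63 in MO13+C13 and 9.25, 7.75 and 8.22 in MO13 (difference -0.50, SE 0.10). Its copy ventx2.1.S stood at -0.80, -0.47 and 0.15 in the 3 experiments. The gene kctd15.L, known in fish and frog as an inhibitor of neural crest formation, read 9.76, 9.61 and 8.70 in MO13+C13 and 10.17, 9.89 and 9.21 in MO13 (difference -0.40, SE 0.10). The protease inhibitor gene serpine2.L read 7.26, 6.92 and 6.24 in MO13+C13 against 7.79, 7.56 and 6.97 in MO13, a difference of -0.63 (SE 0.14). Its MO13 values lay below CMO too, at 8.4, 7.62 and 7.49, so MO13+C13 stood farther from CMO. A dimmer probe set of serpine2.L stood at -0.27 and the copy serpine2.S at -0.20.

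The exocyst subunit gene exoc5.L read 7.37, 6.33 and 7.26 in MO13+C13 and 7.85, 6.86 and 7.81 in MO13, with differences of -0.48, -0.53 and -0.55 that hardly varied between experiments. The COPII-associated gene sec23ip.S read 7.21, 6.65 and 6.43 in MO13+C13 and 7.60, 7.44 and 6.93 in MO13 (difference -0.56, SE 0.14), and its CMO arrays read 6.44, 5.79 and 5.25. For it and for syvn1.L, a ubiquitin ligase of the endoplasmic reticulum (-0.44, SE 0.11), the lower MO13+C13 level lay between MO13 and CMO in every experiment. The autophagy gene atg16l1.S stood at -0.48 (SE 0.12), while 5 probe sets of its copy atg16l1.L ranged from -0.23 to 0.08. The palmitoyltransferase gene zdhhc4.L had the lowest value of the 12, -0.91 (SE 0.20), from -1.44, -0.96 and -0.34. The zinc transporter gene slc30a2.L (-0.50), the checkpoint clamp gene rad1.L (-0.55) and commd6.S (-0.37) follow. The ribosomal protein gene rpl35.L stood at -0.42 in the probe set chosen and at -0.03 in its other probe set, at a mean of 11.9.

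**Figure D2:**
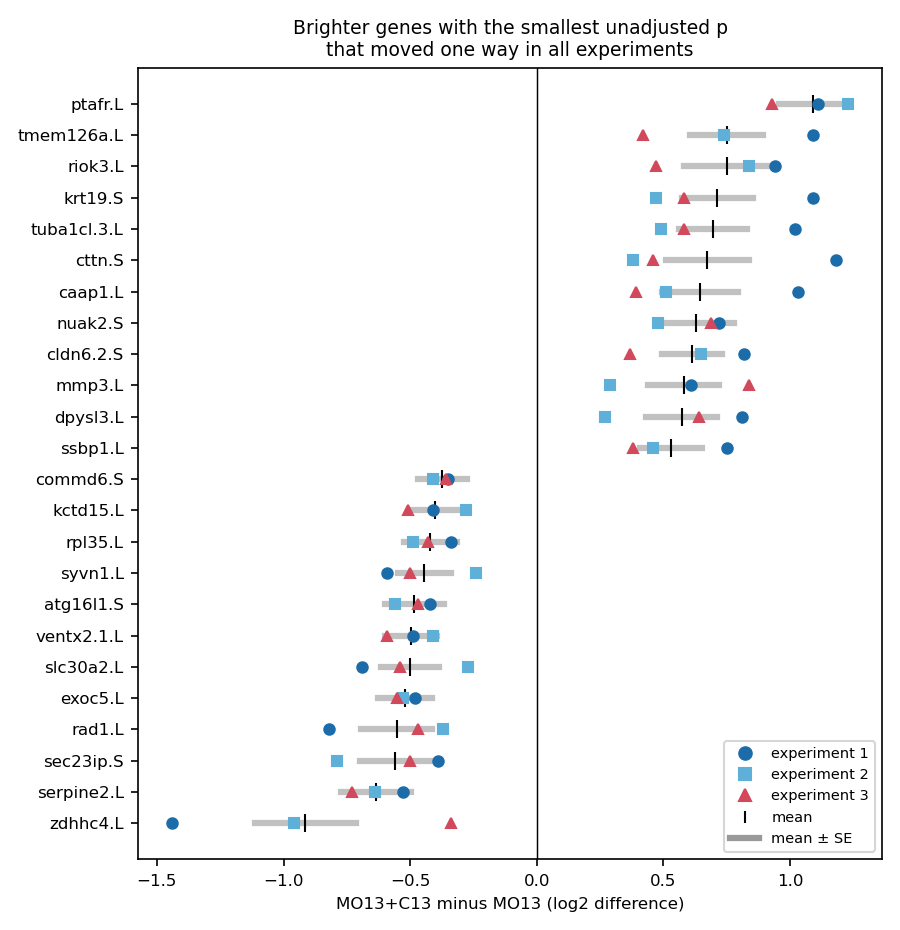
Difference between MO13+C13 and MO13 (log2) in each experiment for the 24 genes described above, 12 higher and 12 lower, with the mean as a black tick and its SE as a grey bar. They were chosen for lying on one side of 0 in all 3 experiments, and the range between experiments is widest for the lower gene zdhhc4.L, from -1.44 to -0.34.

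Past 2-fold in one direction in experiments 1 and 2 were 32 probe sets higher (0.207%) and 10 lower (0.0646%). These values chose the members and are given as a description. In experiment 3, which the choice did not use, 15 of the 32 were higher and 3 past 2-fold, with a median of -0.075 and a range from -1.42 to 2.04. Of the 10, 2 were lower in experiment 3, with a median of 0.255. The 3 that were past 2-fold in every experiment, singled out after their values were seen, are b3gnt3.2.L, XB5815362.S and a probe set with no gene symbol. The glycosyltransferase gene b3gnt3.2.L read 2.54, 3.58 and 2.89 in MO13+C13 and 1.48, 2.43 and 1.58 in MO13. XB5815362.S read 3.39, 3.94 and 3.77 in MO13+C13 and 1.66, 2.60 and 1.96 in MO13, with 1.73, 1.84 and 2.25 in CMO. The unnamed one read 6.72, 7.2 and 6.53 in MO13+C13, 5.07, 4.32 and 4.49 in MO13 and 5.21, 4.10 and 3.48 in CMO. In all 3 the MO13+C13 arrays lay above every MO13 array, as in 1.96% of all probe sets. Their choice for large differences in every experiment favours this, so it adds no evidence. Of the 3, 2 read under the median of every array in all groups. XB5815362.S was the only one called under another setting of limma, with a trended and robust variance prior (1.63, adjusted p = 0.0494).

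Of the probe sets at or above the median level with 1 gene symbol, the 6 genes highest in experiments 1 and 2, ranked by the smaller of the 2 differences, were umps.L, eif3a.S, matr3.S, bard1.L, angpt4.S and tent5a.L, and 4 of the 6 had the opposite sign in experiment 3. Dimmer probe sets stood higher still in the mean of experiments 1 and 2, among them satpb.L (1.92, 2.87 and 0.98) and cyp27c1.S (3.44, 1.29 and 0.87), named here after their values were seen, and both kept their sign. The pyrimidine synthesis gene umps.L read 8.41, 7.87 and 8.58 in MO13+C13, 5.56, 6.43 and 8.81 in MO13 and 7.54, 7.43 and 8.99 in CMO. Its differences were 2.85, 1.44 and -0.23, and the MO13 arrays of experiments 1 and 2 are the low ones among the 9. The translation initiation factor gene eif3a.S showed the same order, with 7.53, 7.36 and 8.11 in MO13+C13, 5.25, 6.09 and 8.77 in MO13 and 6.99, 6.93 and 8.33 in CMO. A second probe set of eif3a.S read 8.2, 7.86 and 8.53 in MO13+C13 and 6.06, 6.76 and 9.38 in MO13. The 3 probe sets of its copy eif3a.L, at means of 11.3 to 11.5, stood between -0.12 and 0.00. The RNA-binding gene matr3.S (1.70, 1.24 and -0.69) and the BRCA1 partner gene bard1.L (1.14, 1.25 and -0.77) likewise had opposite signs in experiment 3, while further matr3.S probe sets stood at 0.04 and -0.05. By contrast the angiopoietin gene angpt4.S (1.31, 1.77 and 0.67) and the nucleotidyltransferase gene tent5a.L (1.15, 1.12 and 0.18) were higher in all 3 experiments. In limma, the difference between experiment 3 and the others did not pass for any of these, with an adjusted p of 0.582 for umps.L, for both eif3a.S probe sets and for matr3.S and bard1.L.

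Among the 10 lower probe sets were rfx5.L and gjb2.L, named here after their values were seen. The transcription factor gene rfx5.L, known for MHC class II genes, read 3.09, 2.52 and 2.63 in MO13+C13, 7.21, 6.32 and 2.42 in MO13 and 4.19, 2.89 and 2.87 in CMO. High readings were thus confined to 2 of the 9 arrays, MO13 of experiments 1 and 2. The connexin gene gjb2.L read 2.48, 2.45 and 2.16 in MO13+C13 and 5.23, 4.23 and 1.79 in MO13, with 2.92, 3.59 and 2.07 in CMO. With all arrays neither passed (limma adjusted p = 0.721 each). Without experiment 3 rfx5.L was called at -3.96 (limma adjusted p = 0.0285), and without the MO13 array of experiment 3 at -3.88 (adjusted p = 0.00972). By the rule for brighter probe sets, zdhhc4.L, the ubiquitin ligase adaptor gene klhl24.S (-1.35, -1.74 and -0.02), the transcription elongation gene nelfa.L (-1.81, -0.76 and 0.61), the adaptor gene grb2.S (-0.98, -0.69 and 0.61), c22orf39.L (-1.35, -0.68 and -0.23) and bcap29.L (-0.96, -0.65 and 0.41) stood lowest in experiments 1 and 2. The copy grb2.L stood at 0.07, and a further nelfa.L probe set at 0.10. A dimmer klhl24.S probe set stood at -0.99, 0.07 and 0.22.

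Some brighter genes were picked because their experiment 3 value had the opposite sign to both other experiments. They were ranked by the gap between the experiment 3 value and the nearer of the other 2 values. By this gap the 4 genes farthest above experiments 1 and 2 were the purine salvage gene hprt1.L, the forkhead gene foxb1.S, the glycolysis regulator gene pfkfb3.S and the peptide deformylase gene pdf.S. The gene hprt1.L read 5.38, 5.31 and 5.48 in MO13+C13, 6.38, 5.87 and 4.28 in MO13 and 5.96, 5.36 and 4.74 in CMO. The gene foxb1.S read 8.04, 7.65 and 8.2 in MO13+C13, 8.3, 8.14 and 6.86 in MO13 and 8.03, 7.79 and 7.75 in CMO. In both genes the MO13 array of experiment 3 is the lowest of all, while MO13+C13 varied little. For hprt1.L the CMO array of experiment 3 also lay below every MO13+C13 array. The gene pfkfb3.S was also lowest in the MO13 array of experiment 3, with 5.90, 6.38 and 6.29 in MO13+C13 and 6.19, 6.62 and 5.04 in MO13. A dimmer pfkfb3.S probe set stood at 0.02, -1.13 and 0.68, so in experiment 1 it did not share the lower value. Farthest below by the same gap were c1orf21.S, eif3a.S, matr3.S and bard1.L, with c1orf21.S at 6.39, 5.36 and 4.99 in MO13+C13 and 4.83, 4.25 and 6 in MO13. None of these passed the test of experiment 3 against the others (limma adjusted p = 0.582 for hprt1.L, foxb1.S, pfkfb3.S and c1orf21.S, and 0.596 for pdf.S).

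Genes of epidermis and surface ectoderm were higher in MO13+C13 more often than not. The surface ectoderm covers the embryo and adjoins the crest, and its outer cells are joined by claudins and filled with keratins. Of 58 such genes measured, 39 had higher values and 18 lower, against 49.0% and 50.2% of all probe sets. In one direction in all 3 experiments were 16 higher (27.6%) and 4 lower (6.90%), where 11.7% and 14.0% of all probe sets were. At an unadjusted p under 0.05 there were 11 higher and 1 lower, where 3.88% and 2.83% of all probe sets were. None passed limma over all probe sets. The list median was 0.16, beside -0.0033 over all probe sets, and by experiment it was 0.11, 0.44 and 0.005. With arrays centred on their medians 36 were higher and 22 lower, with a median of 0.10 beside -0.06 over all. The lists were compiled with earlier results of these data known, so the direction of this one is no independent evidence.

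The epidermal list was split into claudins, keratins and the rest after the values were seen, and the differences between these were not tested. Of the 41 genes of the rest 25 were higher, 6 of them in all 3 experiments with 4 lower in all 3, and their median was 0.13, or 0.06, 0.24 and -0.07 by experiment. Of 7 claudin genes 6 were higher, 5 of them in all 3 experiments, with a median of 0.56 and experiment medians of 1.1, 0.62 and 0.16. Over all probe sets 49.0% were higher, 11.7% were higher in all 3 experiments and 14.0% lower in all 3. Apart from cldn4.L, the claudins higher in all 3 are the .L and .S copies of cldn6.1 and cldn6.2. They were read on the same arrays, so their values are not independent. The claudin gene cldn6.1.S read 6.03, 6.35 and 8.37 in MO13+C13 and 4.53, 5.6 and 7.90 in MO13, and cldn6.1.L read 6.5, 6.53 and 6.97 in MO13+C13 and 4.86, 5.55 and 6.81 in MO13. In both, the gap was widest in experiment 1 and narrowest in experiment 3, with one sign throughout. The gene cldn4.L read 9.68, 9.73 and 9.50 in MO13+C13, wholly above 8.98, 9.27 and 9.46 in MO13, and close to CMO at 9.69, 9.60 and 9.39. The copy cldn6.2.L stood at 1.1, 0.11 and 0.46, cldn7.L at 1.12, 0.62 and -0.52, and cldn1.S at 0.29, -0.07 and -0.27. Claudins were therefore not alike in experiment 3, where 5 of 7 were higher.

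Of 10 keratin genes 8 were higher, 5 in all 3 experiments, where 49.0% and 11.7% of all probe sets were. Their median was 0.25, with experiment medians of 0.055, 0.62 and 0.165, so that in experiment 1 they lay no higher than the rest of the list. The gene krt12.5.S read 8.4, 9.02 and 8.92 in MO13+C13, above every MO13 array at 6.87, 7.91 and 8.12, with 6.42, 8.35 and 9.32 in CMO. The gene krt70.L read 7.30, 8.05 and 7.61 in MO13+C13 and 6.63, 6.95 and 6.01 in MO13, and its copy krt70.S stood at 0.13, 0.52 and 0.27. The krt19.S values are given above, and its copy krt19.L stood at -0.60, 0.72 and 0.13. Keratins that mark the larval epidermis, krt12.4.L and krt12.4.S, stood at -0.19, 1.04 and -0.01 and at -0.21, 0.74 and -1.06. They did not share the direction of krt12.5.S outside experiment 2.

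Other genes of the junctions and the surface did not share one direction. The plakoglobin gene jup.L, which links cadherins and desmosomes to the cytoskeleton, read 7.98, 8.67 and 8.15 in MO13+C13 and 9, 9.23 and 8.22 in MO13. Its difference of -0.55 (SE 0.19) came from experiments 1 and 2, at -1.02 and -0.56, against -0.07 in experiment 3, and its copy jup.S stood at -0.16. The desmosomal gene pkp2.L stood at 0.55, 0.42 and 0.17. The hyaluronan synthase gene has1.S stood at -0.39, -0.11 and -0.17. Of 19 cadherin, protocadherin and catenin genes 8 were higher and 11 lower, with a median of -0.02 and 0 that passed. In all 3 experiments 1 was higher and 6 lower, where 11.7% and 14.0% of all probe sets were. The placental cadherin gene cdh3.S read 9.86, 10.46 and 10.41 in MO13+C13 and 10.57, 10.77 and 10.43 in MO13, a difference of -0.35, while cdh3.L stood at -0.06. The epithelial cadherin gene cdh1.S stood at 0.04, 0.60 and -0.67.

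**Figure D3:**
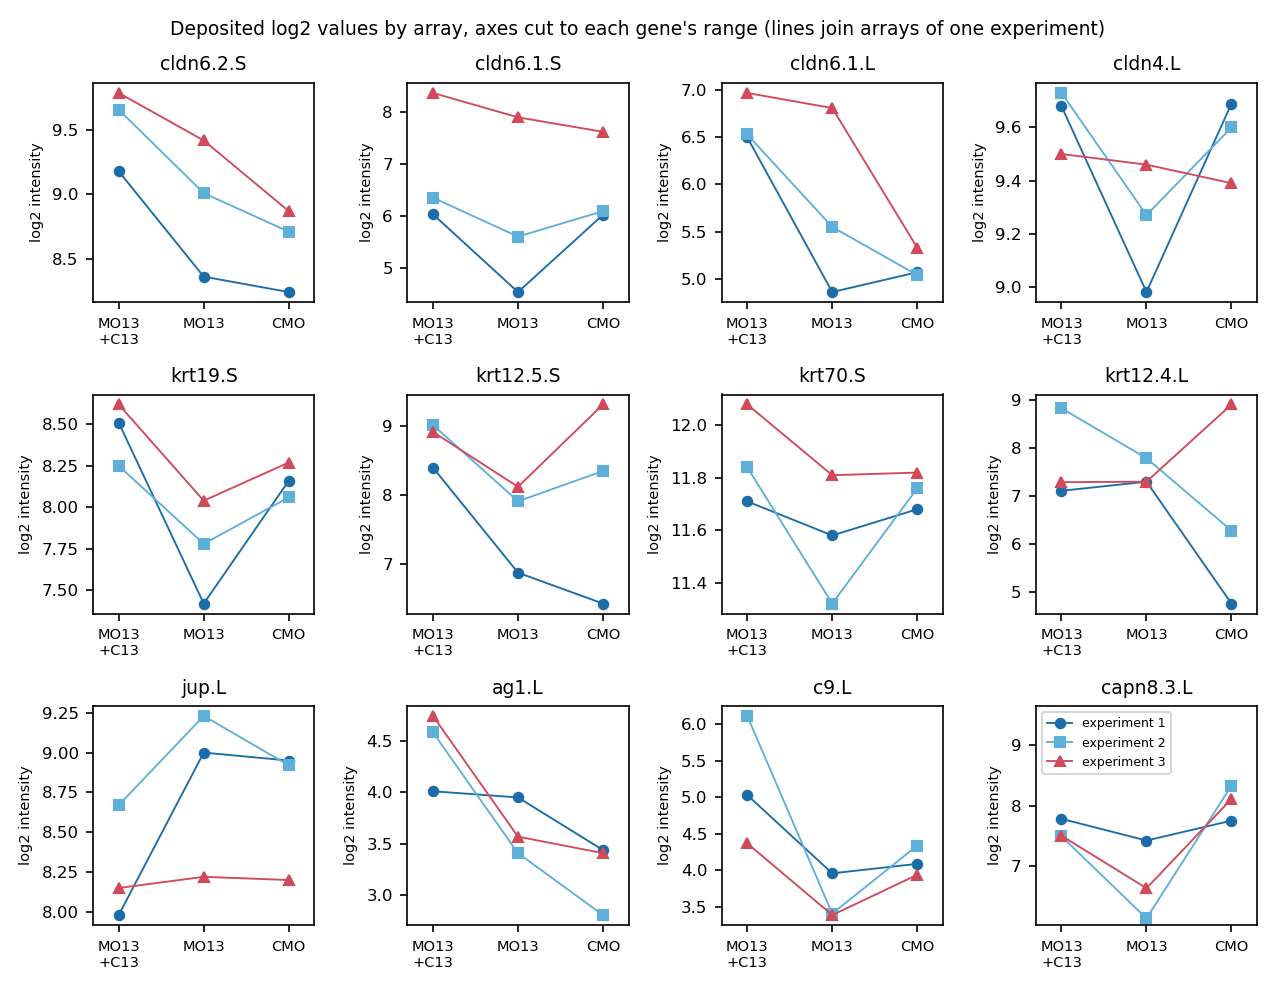
Deposited log2 values of 12 genes on each of the 9 arrays, with axes cut to each gene's range and lines joining the arrays of one experiment. The 12 were not drawn by a rule. The genes krt19.S, krt12.5.S, cldn4.L, ag1.L, c9.L and capn8.3.L have all 3 MO13+C13 arrays above all 3 MO13 arrays. Over all probe sets that share is 1.96%. The gene krt12.4.L shows the spread between CMO arrays, from 4.75 to 8.90.

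Marker genes of the surface were part of the same values. In these bulk explants fewer cells of a type and less RNA per cell cannot be told apart. Summed on the linear scale, the 10 measured epidermal markers ran from 6037 to 6783 in MO13+C13, from 4782 to 5314 in MO13 and from 5649 to 6111 in CMO. The ratio of MO13+C13 to MO13 was 1.17, 1.42 and 1.14 in experiments 1, 2 and 3, and none of these markers is listed at 0. The brightest marker, krt70.S, with means of 11.88 in MO13+C13 and 11.57 in MO13, weighs most in these sums. Single markers ran both ways, in experiment 3 from -1.56 for itln1.L to 1.6 for krt70.L. The sums are thus no reading of 10 markers alike. The lectin gene itln1.L, made by secretory cells of the skin, read 4.11, 5.30 and 3.23 in MO13+C13, 4.94, 4.43 and 4.79 in MO13 and 2.65, 1.75 and 7.09 in CMO. It thus did not follow the claudins, and it varied widely among CMO arrays. The 9 crest markers summed to between 4584 and 5598 in MO13+C13, 4895 and 5942 in MO13 and 4838 and 5895 in CMO, with ratios of 1.03, 0.97 and 0.77. The part of the surface markers in the values of the claudins and keratins was not tested.

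Genes of the cement gland and hatching gland, organs of the front of the head, were measured by 8 genes, and none of these reached the array median. Their median was -0.18, 0.785 and 0.655 in experiments 1, 2 and 3, so that here experiment 1 stood apart. The secreted disulfide isomerase gene ag1.L read 4.01, 4.58 and 4.74 in MO13+C13 and 3.95, 3.41 and 3.57 in MO13, with the groups not overlapping, and 3.44, 2.81 and 3.41 in CMO. The copy ag1.S stood at -0.26, 1.73 and 1.79, agr2.S at -0.87, 0.89 and 0.72, and agr2.L at -1.04, 0.68 and 1.01. The homeobox gene pitx1.L stood at -0.10, 1.12 and 0.59. No gene of the list passed, and 2 of the 8 were higher at an unadjusted p under 0.05, as 3.88% of all probe sets were. The .L and .S copies of ag1 and agr2 were read on the same arrays, so their values are not independent. Whether a probe set of one copy also reads the other was not tested.

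Cilium genes were higher in 28 of 37 cases, with a median of 0.14. In all 3 experiments 10 of them were higher and 0 lower, where 11.7% and 14.0% of all probe sets were. Their values came mostly from experiment 1, with medians of 0.33, 0.02 and 0.09, and with arrays centred on their medians the list stood at 0.08 with 22 higher. Only 6 of the 37 reached the median level, and 0 passed limma. The tektin gene tekt4.S, of ciliary microtubules, read 3.94, 3.80 and 3.81 in MO13+C13, above 3.25, 3.49 and 3.02 in MO13, and 3.52, 3.40 and 3.25 in CMO. The radial spoke genes rsph1.L (0.69, 0.37 and 0.41) and rsph3.L (0.41, 0.50 and 0.08) were higher in each experiment. The cyclin gene ccno.L, which directs multiciliated cell differentiation, stood at -0.22, -0.15 and 0.49. The 5 measured markers of multiciliated cells summed to between 28.6 and 42.1 in MO13+C13 and 22.2 and 36.4 in MO13.

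Cranial neural crest genes as a list lay near 0. Of 33 genes 16 had higher values and 17 lower, and the median was -0.01. In all 3 experiments 3 were higher (9.09%) and 8 lower (24.2%), where 11.7% and 14.0% of all probe sets were. At an unadjusted p under 0.05 there were 1 higher and 2 lower, where 3.88% and 2.83% of all probe sets were, and 0 passed limma. The oncogene and crest gene myc.L read 10.35, 10.14 and 10.28 in MO13+C13 and 10.67, 10.37 and 10.51 in MO13, so the groups did not overlap at a difference of -0.26 (SE 0.09). A further myc.L probe set stood at -0.09. The copy myc.S was lower in each experiment in all 3 of its probe sets, with means between -0.48 and -0.37. These means came mostly from experiment 1, at -0.93, -1.06 and -0.74, against -0.11, -0.01 and -0.07 in experiment 2. The cartilage regulator gene sox9.S read 10.53, 10.39 and 10.10 in MO13+C13, below 10.83, 10.54 and 10.61 in MO13, with 10.46, 10.31 and 9.93 in CMO. In each experiment sox9.S in MO13+C13 lay between MO13 and CMO, with a difference from MO13 of -0.32 (SE 0.12). The signalling regulator gene rgs2.L read 2.24, 1.93 and 2.35 in MO13+C13 and 1.34, 1.54 and 2.19 in MO13, all under the array medians. In experiment 3 by itself 14 of the 33 were higher, with a median of -0.04. Its values ran both ways, with ets1.L at -0.82, foxd3.S at -0.75, foxd3.L at -0.57 and sox10.L at -0.51 but cxcr4.L at 0.96, nr2f2.L at 0.69 and nr2f1.L at 0.50. These 7 were picked after their values were seen.

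Among neural plate border and placode genes, 13 of 24 had higher values, and the median was 0.045. In all 3 experiments 0 were higher and 6 lower, where 11.7% and 14.0% of all probe sets were. The homeobox gene dlx5.L stood at 0.60, -0.01 and 0.65 and the zinc finger gene znf703.S at -0.65, -0.11 and -0.17. The eye and placode gene pax6.L read 10.06, 9.89 and 10.30 in MO13+C13 and 8.60, 10.07 and 9.68 in MO13. Its 5 further probe sets ranged from -0.02 to 0.73, and the values came from experiments 1 and 3. None of the 24 passed.

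**Figure D4:**
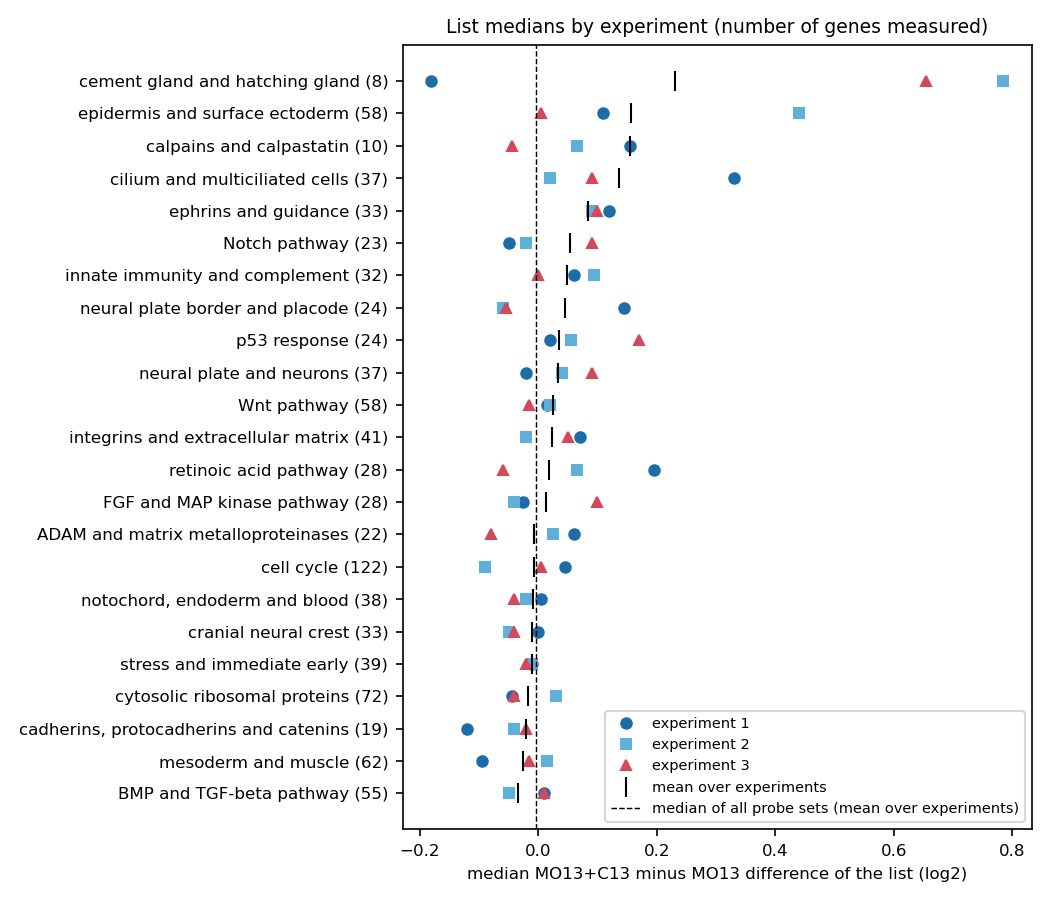
Median difference between MO13+C13 and MO13 (log2) of 23 gene lists in each experiment, with the median of the mean differences as a black tick and that of all probe sets as a dashed line. The gland list and the epidermal list lie farthest to the right and differ most between experiments, and most other lists lie within 0.1 of 0.

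The calpain gene capn8.3.L, an intracellular cysteine protease that earlier work connects with the ADAM13 cytoplasmic domain, read 7.78, 7.49 and 7.50 in MO13+C13, 7.42, 6.13 and 6.63 in MO13 and 7.75, 8.33 and 8.11 in CMO. The MO13+C13 arrays lay wholly above MO13, and in experiments 2 and 3 they lay between MO13 and CMO. Its difference, 0.86 (SE 0.30), missed the threshold (limma adjusted p = 0.721) and was 0.36, 1.36 and 0.87 by experiment, so the largest value was not that of experiment 1. The related capn8.1.L stood at 0.46, 0.50 and -0.06. The small subunit gene capns2.S stood at 0.81, -0.02 and 0.29 in its brightest probe set. Its further probe sets stood at 0.79, -0.02 and 0.20 and at 0.64, 0.38 and 0.19, the latter higher in every experiment. The calpain inhibitor gene cast.L stood at -0.33, -0.62 and -0.13, but a dimmer probe set of it at 0.09, 0.16 and 0.33. Of 10 calpain and calpastatin genes 6 were higher and 4 lower, with a median of 0.16 and 0 that passed. Of 22 ADAM and matrix metalloproteinase genes without adam33, 11 were higher and 11 lower, with a median of -0.01, and with arrays centred on their medians 6 were higher and 16 lower. The genes adam9.L (0.17) and mmp28.L (-0.47) read under the median of every array.

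The authors' deposited table of genes that respond to knockdown and to the domain holds 2096 of these probe sets at their threshold of p 0.01, with a test that the labels do not name. Its average changes equal the differences of group means to within 0.0003. Of its members 1881 (89.7%) had one direction in all 3 experiments, against 2098 of 13393 (15.7%) outside the authors' deposited table. Since that table was drawn from these arrays, the share describes how it was made and is no test. Among its 6 higher genes with the smallest unadjusted p in limma, the complement gene c9.L read 5.03, 6.11 and 4.37 in MO13+C13, 3.96, 3.41 and 3.39 in MO13 and 4.09, 4.34 and 3.94 in CMO. The ESCRT gene chmp2a.L read 3.52, 4.87 and 4.84 in MO13+C13 and 4.29, 5.94 and 5.51 in MO13 (-0.84, SE 0.17), and its further probe set stood at -1.01. The RNA transport gene stau2.S (-0.53) and the integrin activator gene fermt1.L (-0.63) were lower in each experiment. Of the 24 genes described by rank above, the authors' deposited table holds 17, where it holds 2096 of all 15489 probe sets. The 24 were chosen from the same arrays for one direction in all 3 experiments, which most of that table shares. The overlap is therefore no test either.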

How the data were processed

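RNA of cranial neural crest explants was labelled with biotin and hybridised to Affymetrix Xenopus laevis arrays. The values are log2 intensities per probe set that the authors deposited, made with Affymetrix Expression Console and GC-RMA, per the submitters' processing notes. The notes give no tool versions. The p-value lists and the average changes in log2 are those of the authors' deposited tables, per the file headers, and their array values equal the value table. By the probe annotation 9304 of 15491 probe sets carry 1 gene symbol, 195 several and 5992 none. By gene identifier, 9227 were found in RefSeq's gene list, and 2 symbols were updated from it. No column of values lacked a sample, and no genome sequence was used. No reads or counts underlie the values, so the number of arrays limits the precision.

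Group means were compared with limma 3.58.1 in R 4.3.3 (lmFit and eBayes, two-sided, no trend), with all 9 arrays, group and experiment as terms, and Benjamini-Hochberg adjustment over 15489 probe sets at 0.05. The block follows the series text, which names 3 experiments. Arrays of one experiment shared deviations from their group means (r from 0.51 to 0.73 in 9 pairs, and from -0.46 to -0.06 in 18 other pairs). Deviations within a group cancel, so the negative values follow in part from the arithmetic. A second fit gave group its own term in experiment 3. The script was tested on simulated data. Whether replicates came from separate clutches is not stated. Each p-value sets a group difference against the scatter left after the block removed the level of each experiment. That scatter is pooled over all 3 groups, CMO included, and eBayes draws it towards that of all probe sets. The SE of a gene is thus not the spread of its MO13+C13 minus MO13 differences alone.

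Genes with 1 informative symbol were named by rule. Among probe sets at or above the median of the 9-array mean (4.99), these were the 12 in each direction with the smallest p and one sign in 3 experiments, the 6 in each direction farthest from 0 in experiments 1 and 2, and the 4 in each direction with an opposite experiment 3. Without that limit they were up to 3 members of each of 23 lists by p, the capn8 probe sets, and the 6 in each direction of the authors' second list by p. A list gene is represented by its brightest probe set, and .L and .S copies count as 2 genes. The comparison, the lists and the rules were chosen with earlier results of these data known. Alternatives were no block, only the compared arrays, centring each array on its median, leaving out dim probe sets, and a trended and robust prior. Others were all probe sets of list genes, leaving out each experiment, and leaving out each single array of MO13+C13 or MO13. No CMO array was left out on its own.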

Additional observations from a re-analysis of the deposited data

How the results depend on the processing

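Probe sets called by limma numbered 0 with and without experiment as a block, 1 with a trended and robust prior (XB5815362.S), and from 0 to 1 with an experiment or array left out. Probe sets at an unadjusted p under 0.05, 601 higher and 438 lower, numbered 124 and 86 without the block, 389 and 757 with arrays centred on their medians, and 338 and 272 with dim probe sets left out. With an experiment or array left out they ran from 260 to 1115 higher and from 219 to 715 lower. The higher ones numbered 313 and 1115 without experiments 1 and 3, 260 and 1037 without MO13+C13 replicates 1 and 3, and 344 and 1051 without MO13 replicates 1 and 3. The lower ones numbered 241, 219 and 708 without experiments 1, 2 and 3, 223 and 288 without MO13+C13 replicates 1 and 2, and 715 without MO13 replicate 3. For a different value in experiment 3, limma called 1 with dim probe sets left out and 0 in the other settings run. Past 2-fold in one direction were 42 probe sets in experiments 1 and 2, 23 with dim ones left out, 9 in experiments 1 and 3, and 8 in experiments 2 and 3. Of 23 list medians 18 changed sign in at least 1 setting, 9 of them with arrays centred on their medians, which left 5 of 14 above 0, and the gland list ran from -0.0275 to 0.825. The other 5, the epidermal (0.095 to 0.255), cilium, guidance, calpain and cadherin lists, kept their sign in the settings run. Of 1396 alternatives for the 109 probe sets named by rule, 1395 kept direction and side of the threshold. For those named for an opposite experiment 3, the value followed was experiment 3 against the others, not MO13+C13 minus MO13. Over all 3 experiments the latter was 0.20 for foxb1.S, 0.24 for pfkfb3.S and 0.06 for pdf.S. In the mean of experiments 1 and 2 alone it was -0.375, -0.265 and -0.57, while the other genes so named kept their sign. The 1 alternative that turned was for the ribosomal protein gene rpl3.L, from 0.38 to -0.025 without experiment 1 (range -0.025 to 0.725). In that experiment its MO13 array read 10.73 against 11.91 in MO13+C13. Many of the 109 were chosen for one sign in all 3 experiments, for a small p or for an opposite experiment 3. The count of 1395 is therefore largely fixed by that choice and is no test. The lowest limma adjusted p of these 109 under the alternatives was 0.282. The genes rfx5.L and XB5815362.S, named outside the rule, are not among the 109. Each of them was called under at least 1 alternative, as given above. Causes of these shifts were not tested.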

Other observations

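Genes of cell guidance, through which crest cells and axons read their surroundings, were higher in 22 of 33 cases, 10 of them in all 3 experiments (11.7% of all probe sets) and 2 lower in all 3 (14.0% of all). The list median was 0.08, and 0.12, 0.09 and 0.10 by experiment. With arrays centred on their medians 17 were higher and 15 lower, with a median of 0.03. The semaphorin receptor gene plxna1.L read 7.83, 7.52 and 7.33 in MO13+C13, wholly above 6.44, 6.94 and 7.24 in MO13, with 7.37, 7.43 and 7.72 in CMO. The growth factor gene pdgfa.S stood at 0.60, 0.53 and 0.10, and its further probe set at -0.02. The semaphorin gene sema6d.L read 7.37, 7.38 and 7.01 in MO13+C13 and 8.16, 7.72 and 7.30 in MO13, a difference of -0.47 (SE 0.17). None of the 33 passed limma.

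Among 24 genes of the p53 response, which follows DNA damage and stress, 13 were higher and 11 lower, with a median of 0.04, or 0.02, 0.06 and 0.17 by experiment. In all 3 experiments 7 were higher and 1 lower, where 11.7% and 14.0% of all probe sets were. The kinase gene plk2.S read 5.55, 3.13 and 5.67 in MO13+C13, 3.03, 2.39 and 4.92 in MO13 and 2.44, 1.72 and 2.58 in CMO, so in each experiment MO13+C13 read highest, MO13 next and CMO lowest. The phosphatase gene ppm1d.L stood at -0.17, -0.15 and -0.54, and its further probe set at 0.18, -0.05 and -0.37. Of 122 cell cycle genes 10 (8.2%) were higher and 19 (15.6%) lower in all 3 experiments, close to those shares over all probe sets. The spindle checkpoint gene bub3.L read 9.53, 9.68 and 9.68 in MO13+C13 and 9.92, 9.90 and 9.80 in MO13. Of 37 neural plate and neuron genes 8 were higher and 2 lower in all 3, with the head gene otx2.S at 2.29, 0.67 and 0.21 while the copy otx2.L stood at -0.12, -0.32 and 0.09.

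In the signalling lists the counts in one direction in all 3 experiments, where 25.7% of all probe sets had one, were 4 higher and 9 lower of 55 BMP and TGF-beta genes, 6 and 8 of 58 Wnt genes, 4 and 2 of 28 FGF and MAP kinase genes, and 3 and 3 of 23 Notch genes. Those named here are among the 3 of their list with the smallest p, apart from copies and further probe sets given beside them. The secreted BMP antagonist gene fst.L read 3.42, 2.66 and 4.64 in MO13+C13 and 2.29, 2.37 and 3.45 in MO13. The ligand gene wnt4.L stood at 0.58, 0.55 and 1.07, fgf3.L at 0.55, 0.56 and 0.65, and fgf8.L at 0.46, 0.28 and 0.32 in its brightest probe set but at 0.46, 0.06 and -0.18 in a dimmer one. The Notch target gene hes1.S stood at 0.41, 0.06 and 0.72, its copy hes1.L at 0.25, -0.40 and 0.82, and hes5.1.L at -0.72, -0.45 and -0.19. Their lists lay near 0, with medians of -0.03 for BMP and TGF-beta, 0.03 for Wnt, 0.01 for FGF and MAP kinase and 0.05 for Notch. No gene of these lists passed limma, and the medians of 62 mesoderm and muscle genes (-0.03), 38 notochord, endoderm and blood genes (-0.01) and 72 ribosomal protein genes (-0.02) were as near to 0.

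The remaining lists had medians of 0.05 for 32 innate immunity and complement genes, 0.02 for 41 integrin and matrix genes, 0.02 for 28 retinoic acid genes and -0.01 for 39 stress and immediate early genes. The integrin gene itga3.L read 6.51, 5.46 and 3.51 in MO13+C13 and 6, 4.85 and 3.07 in MO13, and the basement membrane gene nid2.L read 7.56, 7.55 and 7.68 in MO13+C13 and 6.64, 7.30 and 7.52 in MO13. The chaperonin gene hspd1.S stood at 0.60, 0.24 and 0.34, but a further probe set of it at 0.35, -0.35 and 0.50. The interferon response gene irf1.S stood at 1.37, 1.14 and 0.22, while its brighter copy irf1.L stood at -0.38, 0.76 and -0.35.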
